A study of Xenopus tropicalis with 12 samples.

Results

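Collagens, laminins and integrins were followed through metamorphosis in the middle brain of Xenopus tropicalis, dissected to include thalamus, hypothalamus and preoptic area. The members are the gene models named as a collagen, laminin, integrin, fibronectin, fibrillin or nidogen chain. Of 33875 gene models, 69 had such a name. Of these, 8 carried more than 1 gene symbol and 2 were further models of lama4, and both kinds were left out, which gave 59 members. By family they are 29 collagens, 9 laminins, 15 integrin chains, 2 nidogens, fn1 and fbn1. The rest match by name only: col4a3bp codes for a ceramide transfer protein and itgb1bp1 for a cytoplasmic protein that binds an integrin tail.

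Tadpoles were taken at 4 Nieuwkoop-Faber (NF) stages: NF50, which is premetamorphosis, NF56, prometamorphosis, NF62, the climax, and NF66, when metamorphosis is complete. All animals were wild type and no treatment is labelled, so stage is the only difference that the labels give between groups. Each stage had 3 libraries of total RNA, described as biological replicates, and how many animals made up a library is not stated. Depth ran from 12046529 expected counts in NF56 replicate 3 to 31029733 in NF66 replicate 3, with the other libraries at 19732166 to 25551912. In every library the neuronal gene snap25 was at 1160 CPM or above and the hypothalamic genes otp and avp were detected, as were markers of vessels, meninges and glia. The members together took 0.119 to 0.143% of the counts of a library.

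In the brain, laminins and type IV collagen lie mostly in basement membranes around vessels and under the meninges. There they form separate networks that nidogens link. A laminin is a trimer of an alpha, a beta and a gamma chain, and the chain that is built in changes with age and tissue in vertebrates. Fibrillar collagens give tensile strength, and fibril-associated collagens decorate the fibrils. Integrins are pairs of an alpha and a beta chain that bind these proteins at the cell surface, and radial glia use laminin-binding integrins at their end feet.

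Values per gene are CPM, counts scaled to library size with TMM factors, given for each library or as mean ± SD with n = 3. Between genes, levels are compared only as deposited TPM, which is per length. Fold changes are log2 values ± standard error (SE) and come from a single edgeR quasi-likelihood model of the 12 libraries. The words rose and fell are used where the Benjamini-Hochberg adjusted p, taken over the 19584 models tested, was under 0.05. Of the 59 members, 56 passed the filter on low counts. The others were col6a6, itga2b and itgb2, of which itga2b is known from platelets and itgb2 from leukocytes, and each stayed below 0.2 CPM in every library.

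The largest level per length belonged to itgb1, the common integrin beta chain, at a mean of 54.5 TPM over the 12 libraries. Next among the matrix genes stood col4a6, a type IV collagen chain at 28.7 TPM, col1a2 at 20.7 TPM and the transmembrane collagen gene col25a1 at 19.0 TPM. The gene fn1 and the laminin alpha gene lama5 were both at 16.6 TPM. The least abundant tested member was col6a3 at 0.115 TPM. The col4a6 model is 33101 bases long, and whether all of it belongs to that gene was not tested.

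Across the whole of metamorphosis the members moved in both directions. By NF66, relative to NF50, 17 of the 56 tested members rose and 15 fell, while 24 passed in neither direction. Over all models tested, 17.9% rose and 18.8% fell, and 36.7% passed in either direction. The members' median log2 fold change was 0.13, against 0.02 over all models. On log2(TPM + 1) without TMM factors, tested with limma, the split was 13 higher and 4 lower (lama1, lamb1, col5a2 and col14a1). There 19.5% of all models passed in either direction, and the median of all models was 0.29. Deposited TPM of NF50 replicate 4 was low across genes, at a median of 0.626 times the mean of its 2 stage mates, while its CPM was at 1 times theirs; for the other 11 libraries the TPM ratio was 0.841 to 1.35. Without that library the same fit gave 12 higher and 8 lower, where 21.2% of all models passed, with a median of 0.11 over all models. Falls at NF66 are thus relative to the other genes, and the size of the shift depends on that library.

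**Figure D1:**
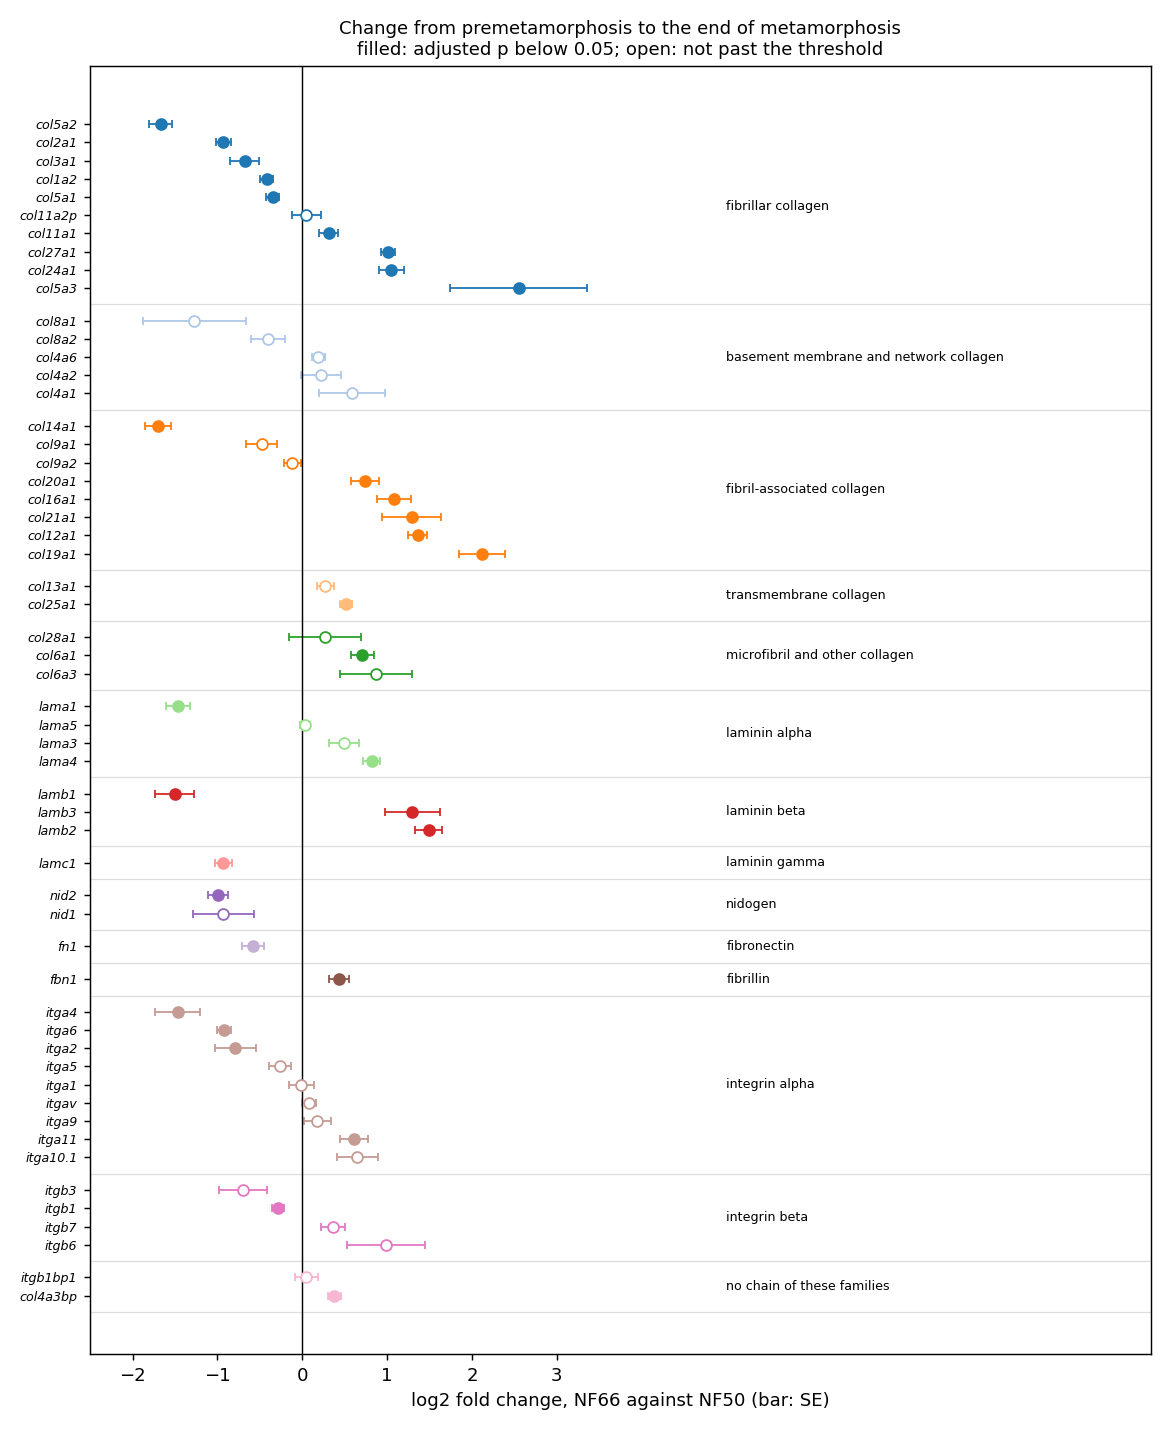
Log2 fold change (x axis) of 55 of the 56 tested members at NF66 against NF50, grouped by role. Bars are SE, filled points passed at an adjusted p below 0.05 and open points did not. Collagens, laminins and integrins each hold points on both sides of 0, from col5a3 at 2.55 to col14a1 at -1.70. The col5a3 value rests on few counts and is no measure of size.

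The number of members past the threshold was smallest at the last step. At NF56 against NF50, 1 member rose and 11 fell, where 6.51% and 7.96% of all models did (14.5% in either direction). At NF62 against NF56, 11 rose and 6 fell, against 9.94% and 8.97% of all models (18.9% in either direction). At NF66 against NF62, 2 rose and 2 fell, against 1.38% and 1.79% of all models (3.17% in either direction). When NF62 was set against the mean of NF56 and NF66, 4 were higher and 2 lower at the climax, against 4.42% and 3.3% of all models (7.72% in either direction). A difference among the 4 stages of any kind was called for 34 of 56 members, or 60.7%, and for 39.6% of all models. By mean level, 19 of the 56 members were highest at NF50, 4 at NF56, 9 at NF62 and 24 at NF66. As shares of the members these are 33.9%, 7.14%, 16.1% and 42.9%, against 33.4%, 20.2%, 20.9% and 25.4% of all models.

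Calls at the single steps differed by tool and scaling. By limma on log2(TPM + 1) without TMM factors, 0 members passed in either direction at each of the 3 steps and for NF62 against its neighbouring stages. At an unadjusted p under 0.05 that fit gave 10 higher and 0 lower at NF56 against NF50, 5 and 3 at NF62 against NF56, and 4 and 1 at NF66 against NF62. It gave 1 and 1 for NF62 against its neighbours. The share of all models at that unadjusted cutoff was not counted, so these counts are not read as a result about the members. At the adjusted threshold few of all models passed either. The shares were 1.21% at NF56 against NF50, 1.49% at NF62 against NF56, 0.0187% at NF66 against NF62 and 0.173% for NF62 against its neighbours. The values of several members stayed large at NF62 against NF56 in that fit, among them col12a1 at 0.68, lama4 at 0.56 and col14a1 at -0.67. Without NF50 replicate 4, 2 members were higher and 2 lower at that step, where 9.2% of all models passed. The median over all models at NF56 against NF50 was 0.33, and 0.14 without that library.

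Laminin transcripts changed in make-up in the beta position, and in the alpha position among genes less abundant per length than lama5. The alpha gene lama1, which is abundant in early basement membranes, stood at 16.5, 15.0 and 16.7 CPM at NF50, 9.27, 10.6 and 12.5 at NF56, 6.26, 6.32 and 7.62 at NF62, and 6.56, 5.19 and 5.71 at NF66. Its NF66 libraries were all far below its NF50 libraries. The gene fell at NF66 against NF50 by 1.46 ± 0.14 on the log2 scale (adjusted p = 1.4e-05).

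The alpha gene lama4, whose chain is found in vessel walls in mammals, was at 6.76, 7.48 and 6.89 CPM at NF50, 5.76, 6.12 and 6.36 at NF56, 9.94, 11.1 and 9.46 at NF62, and 12.1, 13.1 and 12.2 at NF66. The NF62 and NF66 libraries all lay above those of the earlier stages. It rose at NF62 against NF56 (0.74 ± 0.10, adjusted p = 0.00058) and was higher at NF66 than at NF50 (0.82 ± 0.10, adjusted p = 7.8e-05).

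The gene lama5, another chain of vessel and meningeal basement membranes, was at 90.9, 86.9 and 91.8 CPM at NF66 and 89.4, 88.0 and 86.5 CPM at NF50. Those libraries overlapped, and the log2 difference of 0.03 had a 95% interval of -0.10 to 0.16. It was lower in each NF56 library, at 74.0, 79.6 and 80.3 CPM, and in each NF62 library, at 85.1, 74.8 and 80.6 CPM. The test for any difference among stages passed (adjusted p = 0.033). None of the 4 pairs of stages tested did (each stage against the one before it, and NF66 against NF50).

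The epithelial chain gene lama3 was low, with stage means of 1.93, 3.09, 2.05 and 2.69 CPM from NF50 to NF66. It rose at NF56 against NF50 (0.67 ± 0.18, adjusted p = 0.029) and fell at NF62 against NF56 (-0.58 ± 0.18, adjusted p = 0.041). With 1 library left out these calls were lost in 5 and 8 of the 12 fits, with values of 0.56 to 0.79 and -0.70 to -0.51. The first was lost without any NF50 library or NF56 replicate 2 or 3, and the second was kept only without NF50 replicate 4, NF56 replicate 1 or NF66 replicate 2 or 3. With the replicate number as a block in the fit, the rise at NF56 was also lost. That block takes NF50 replicate 4 out of the comparisons, so this loss is not independent of the fit without that library.

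Among the beta chains, lamb1, the usual partner of lama1, was at 8.69, 8.46 and 9.04 CPM at NF50, 4.41, 3.79 and 6.44 at NF56, 3.92, 3.18 and 3.89 at NF62, and 2.72, 2.36 and 4.10 at NF66. The gene lamb2, whose chain sits in mature vessel and synaptic basement membranes in mammals, was at 6.71, 5.85 and 8.60 CPM at NF50, 8.34, 8.74 and 10.8 at NF56, 16.1, 13.2 and 13.0 at NF62, and 17.8, 21.6 and 20.0 at NF66. The NF66 and NF50 libraries did not overlap for either gene. Between these stages lamb1 fell (-1.50 ± 0.23, adjusted p = 0.00044) and lamb2 rose (1.49 ± 0.16, adjusted p = 3.6e-05). The beta gene lamb3, a partner of lama3 in epithelia, also rose (1.30 ± 0.33, adjusted p = 0.0096) but reached only 1.29, 1.05 and 1.12 CPM at NF66, against 0.348, 0.507 and 0.538 CPM at NF50.

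The steps in between were smaller. The call of lamb1 at NF56 against NF50 (-0.85 ± 0.23, adjusted p = 0.030) was lost in 5 of 12 fits with 1 library left out (-1.09 to -0.70), namely without any NF50 library or NF56 replicate 1 or 2. That of lamb2 at NF62 against NF56 (0.61 ± 0.16, adjusted p = 0.023) was lost in 3 (0.50 to 0.72), without NF56 replicate 1 or 2 or NF62 replicate 1. The gene lama1 fell at both NF56 (-0.58 ± 0.14, adjusted p = 0.016) and NF62 (-0.67 ± 0.14, adjusted p = 0.0063), and its earlier step was lost without NF56 replicate 1 or 2 and without NF50 replicate 1 or 4 (-0.69 to -0.48).

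The gamma gene lamc1, whose chain completes most laminins, was at 53.5, 56.4 and 58.4 CPM at NF50, 36.0, 35.9 and 42.4 at NF56, 30.2, 27.2 and 33.5 at NF62, and 30.8, 26.5 and 31.1 at NF66. Its level was lower in every library after NF50. It fell at NF66 against NF50 (-0.93 ± 0.10, adjusted p = 3.2e-05), and at NF56 against NF50 the change was -0.56 ± 0.10 (adjusted p = 0.0041). The step at NF62 (-0.33 ± 0.10, adjusted p = 0.041) held only without NF62 replicate 3 or NF66 replicate 2 or 3 when 1 library was left out (-0.41 to -0.25).

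**Figure D2:**
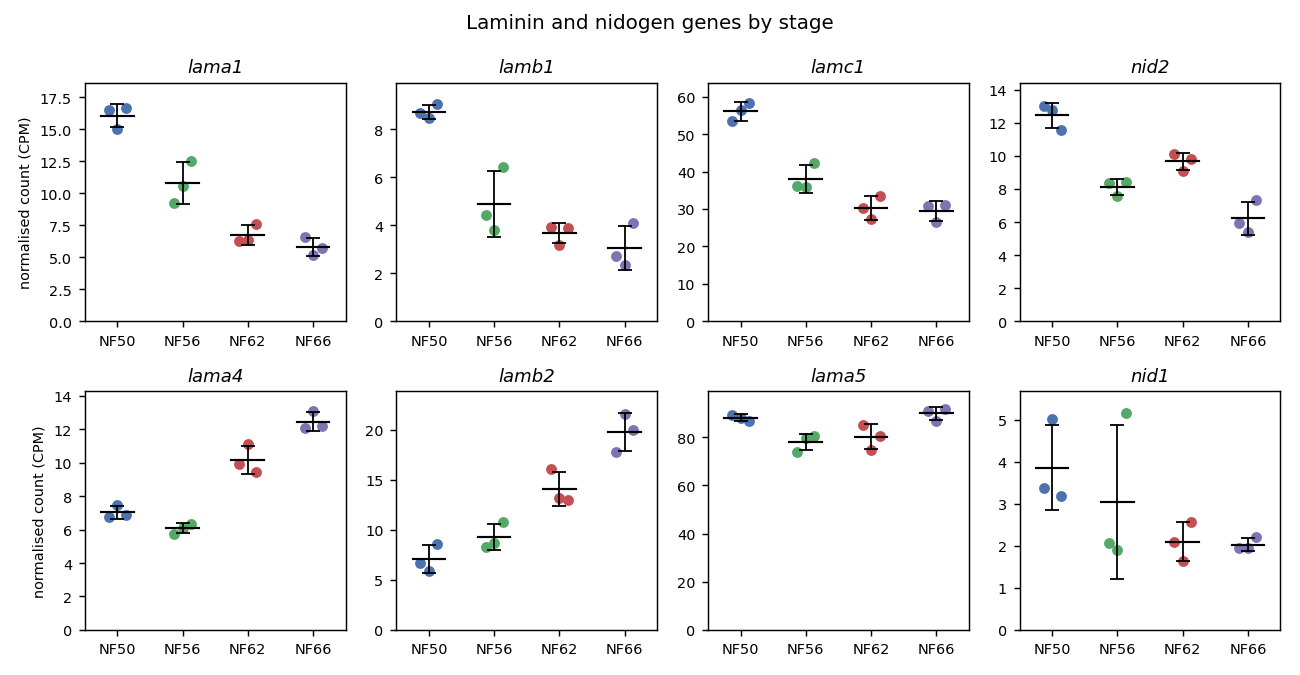
Normalised counts (CPM, y axis from 0) of laminin and nidogen genes in each library at the 4 stages; the long line is the mean and the bars are SD (n = 3). The genes lama1, lamb1 and lamc1 are highest at NF50, lama4 and lamb2 are highest at NF66, and lama5 stays between 74.0 and 91.8 CPM.

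Within a library, the ratio of chain levels in TPM does not depend on scaling. The pairs that follow were chosen after their values were seen, so they are given as a description with no test. The ratio of lamb2 to lamb1 was 0.55 ± 0.09 at NF50, 1.34 ± 0.22 at NF56, 2.64 ± 0.33 at NF62 and 4.68 ± 1.43 at NF66 (SD, n = 3). The libraries of each stage lay above those of the stage before. The ratio of lama4 to lama1 was 0.88 ± 0.10, 1.14 ± 0.11, 3.06 ± 0.52 and 4.36 ± 0.70 in the same order.

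Shares of a chain position are of the TPM summed over the members in it, so chains that are no members are not counted. On that basis lamb1 made up 62.7 ± 3.45% of laminin beta TPM at NF50, 41 ± 3.49% at NF56, 26.2 ± 2.38% at NF62 and 17.2 ± 4.3% at NF66. The share of lamb2 was 34.3 ± 3.64%, 54.5 ± 4.14%, 68.6 ± 2.71% and 76.7 ± 4.4%. In the alpha position the members are lama1, lama3, lama4 and lama5. Of their sum lama5 held 67.1 to 69.6% on average at every stage, while lama1 held 16.5 ± 0.924% at NF50 and 5.79 ± 0.644% at NF66.

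**Figure D3:**
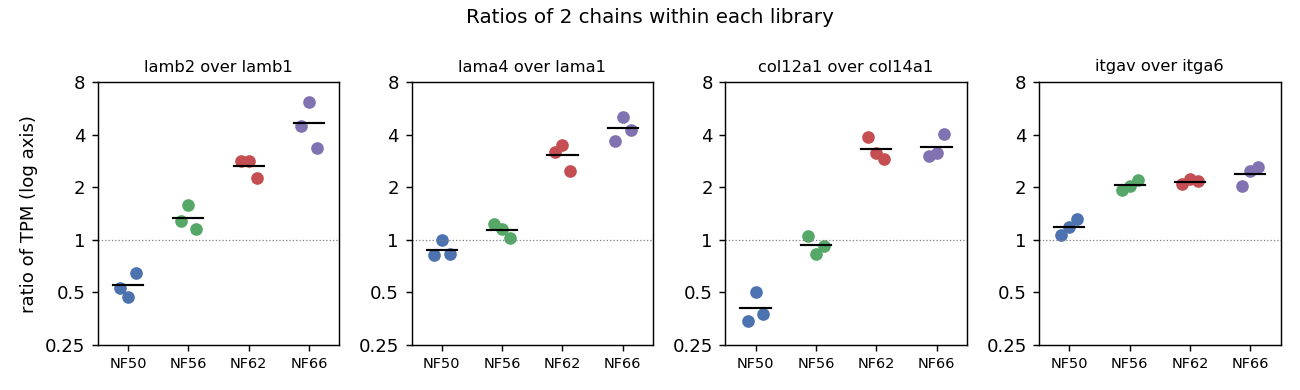
Ratio of the TPM of 2 chains within each library (y axis, log scale), by stage; points are libraries and lines are stage means. The mean ratio of lamb2 to lamb1 passes 1 between NF50 and NF56, and that of col12a1 to col14a1 between NF56 and NF62.

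Nidogens link laminin to type IV collagen. The gene nid2 was at 13.0, 12.8 and 11.6 CPM at NF50, 8.34, 7.58 and 8.42 at NF56, 10.1, 9.09 and 9.84 at NF62, and 5.96, 5.40 and 7.32 at NF66. Its level was higher in every NF62 library than in any NF56 or NF66 library, and NF66 was below NF50 throughout. It fell at NF56 against NF50 (-0.62 ± 0.12, adjusted p = 0.0073) and at NF66 against NF62 (-0.63 ± 0.12, adjusted p = 0.023). Against the mean of NF56 and NF66 it was higher at NF62 (0.44 ± 0.10, adjusted p = 0.028).

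The NF66 step of nid2 was lost without NF62 replicate 1 or 3 or NF66 replicate 1 or 2 (-0.77 to -0.54). The climax difference was lost without NF66 replicate 1, NF62 replicate 1 or 3, or NF56 replicate 1 or 2 (0.40 to 0.51). Over the whole of metamorphosis nid2 fell by 0.99 on the log2 scale (SE 0.12, adjusted p = 9.1e-05). The gene nid1 was at 1.94, 1.94 and 2.20 CPM at NF66 and 3.38, 5.03 and 3.18 CPM at NF50 and did not pass (-0.93 ± 0.36, adjusted p = 0.065), with NF56 replicate 3 at 5.16 CPM.

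The type IV collagen members did not pass between NF66 and NF50. The model shared by col4a5 and vbp1, which is no member, was lower at NF66 (-0.44 ± 0.08, adjusted p = 0.0018). The gene col4a1 was at 3.14, 4.30 and 7.04 CPM at NF66 and 2.88, 3.78 and 3.03 CPM at NF50, and the interval of its log2 difference ran from -0.27 to 1.44. Its partner col4a2 was at 7.71, 7.18 and 11.9 CPM at NF66 and 6.11, 8.34 and 8.65 CPM at NF50 (interval -0.30 to 0.74). At NF56 and at NF66, both were highest in replicate 3 among the libraries of the stage. These libraries lay at the high end of an axis that held 54.2% of the variance between libraries of the same stage. The gene lamb1 was also highest in replicate 3 within each of these stages.

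The gene col4a6 was at 309, 342 and 290.0 CPM at NF50, 294, 286 and 321 at NF56, 392, 353 and 371 at NF62, and 339, 347 and 384 at NF66. The climax libraries all lay above those of NF56, and the gene rose between these stages (0.31 ± 0.08, adjusted p = 0.017). That call was lost without NF56 replicate 1 or 2 or NF62 replicate 1 (0.27 to 0.36). The network-forming chain genes col8a1 and col8a2 did not pass in any comparison.

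Fibrillar collagens split. Of the 10 members, 4 rose and 5 fell at NF66 against NF50, where 17.9% of all models rose and 18.8% fell. The largest fall was that of col5a2, a chain of type V collagen, which helps set the width of fibrils. It was at 20.2, 19.6 and 21.6 CPM at NF50, 9.60, 10.7 and 12.8 at NF56, 8.20, 7.50 and 8.77 at NF62, and 6.56, 5.40 and 7.20 at NF66. The libraries of each stage lay below those of the stage before, and the change at NF66 against NF50 was -1.67 ± 0.14 (adjusted p = 5e-06). The step at NF56 was -0.89 ± 0.13 (adjusted p = 0.0017). The call at NF62 against NF56 (-0.43 ± 0.13, adjusted p = 0.047) held only without NF56 replicate 1 or NF66 replicate 2 or 3 when 1 library was left out (-0.52 to -0.31).

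The gene col5a1, for the main chain of type V collagen, was at 69.7, 66.3 and 68.7 CPM at NF50, 53.9, 62.1 and 55.3 at NF56, 40.0, 47.1 and 40.1 at NF62, and 54.8, 56.1 and 50.3 at NF66. Its lowest libraries were those of the climax, none of which overlapped the stages on either side. It fell at NF62 against NF56 (-0.43 ± 0.08, adjusted p = 0.0040) and was lower at NF62 than the mean of NF56 and NF66 (-0.39 ± 0.07, adjusted p = 0.0093). The call against the neighbouring stages was lost without NF62 replicate 1 or 3 (-0.47 to -0.34). Its rise at NF66 against NF62 (0.34 ± 0.08, adjusted p = 0.049) held only without NF62 replicate 2 (0.30 to 0.42 over the 12 fits).

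The cartilage and notochord collagen gene col2a1 was at 50.9, 46.1 and 52.3 CPM at NF50, 26.8, 27.3 and 33.4 at NF56, 31, 32.6 and 31.1 at NF62, and 25.3, 27.7 and 25.5 at NF66. The drop lay at NF56 (-0.78 ± 0.09, adjusted p = 0.00046), with every later library below every NF50 library. Relative to NF50, its NF66 level fell by 0.93 (SE 0.09, adjusted p = 1.7e-05).

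Type I and type III collagen form the fibrils of most connective tissue. The type I gene col1a2 was at 58.1, 50.9 and 60.3 CPM at NF50, 61.8, 67.0 and 60.9 at NF56, 54.0, 55.7 and 61.8 at NF62, and 41.7, 43.1 and 41.9 at NF66. Only the NF66 libraries stood apart, below all others, and the gene fell at NF66 against NF62 (-0.44 ± 0.08, adjusted p = 0.015) and against NF50 (-0.42 ± 0.08, adjusted p = 0.0013). The call against NF62 was lost without NF62 replicate 3 or NF66 replicate 1 or 2 (-0.48 to -0.38). The type III gene col3a1 was at 6.05, 5.71 and 6.95 CPM at NF66, below the 10.2, 7.64 and 12.3 CPM of NF50 (-0.68 ± 0.17, adjusted p = 0.0077).

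Among fibrillar genes that rose, col27a1 was at 22.8, 24.1 and 21.3 CPM at NF50, 23.5, 26.1 and 22.6 at NF56, 32.9, 32.8 and 31.4 at NF62, and 45.7, 48.5 and 43.5 at NF66. It codes for a fibrillar collagen known from cartilage. Its libraries were alike at NF50 and NF56 and higher in every library at each later stage. It rose at NF62 against NF56 (0.43 ± 0.08, adjusted p = 0.0031) and at NF66 against NF62 (0.50 ± 0.08, adjusted p = 0.0099), the second lost without NF62 replicate 3 (adjusted p = 0.053).

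The related gene col24a1 was at 8.82, 10.5 and 8.01 CPM at NF66 and 4.12, 4.29 and 4.79 CPM at NF50 (1.05 ± 0.15, adjusted p = 0.00024). The gene col11a1 was at 56.2, 59.9 and 46.5 CPM at NF66 and 46.3, 39.4 and 45.1 CPM at NF50, a difference of 0.31 ± 0.11 (adjusted p = 0.042). That call was lost in 7 of 12 fits with 1 library left out (0.22 to 0.41), namely without any NF50 library, NF56 replicate 1, NF62 replicate 3 or NF66 replicate 1 or 2. The gene col11a2p, named so in the annotation, did not pass (0.05 ± 0.17).

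The type V gene col5a3 rested on few counts, 7, 7 and 29 rounded expected counts at NF66 against 2, 4 and 0 at NF50. Its fitted value of 2.55 ± 0.81 (adjusted p = 0.029) depends on the prior count and is no measure of size. Without NF66 replicate 3, or NF50 replicate 1 or 4, the call was lost (1.88 to 3.32).

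Fibril-associated collagens mostly rose over metamorphosis: 5 of 8 rose and 1 fell at NF66 against NF50, where 17.9% of all models rose and 18.8% fell. The gene col12a1, whose product links fibrils to other matrix, was at 8.15, 10.6 and 9.97 CPM at NF50, 11.8, 12.4 and 12.9 at NF56, 24.0, 21.3 and 23.8 at NF62, and 22.3, 24.7 and 26.8 at NF66. Its libraries fall into a low set at NF50 and NF56 and a high set at NF62 and NF66. It rose at NF62 against NF56 (0.90 ± 0.11, adjusted p = 0.00032) and was higher at NF66 than at NF50 (1.36 ± 0.11, adjusted p = 5.3e-06).

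Its close relative col14a1 went the other way, at 27.9, 24.6 and 31 CPM at NF50, 13.1, 17.3 and 16.2 at NF56, 7.21, 7.87 and 9.63 at NF62, and 8.68, 9.17 and 7.79 at NF66. The NF56 libraries lay between those of NF50 and those of the 2 later stages, which overlapped each other. It fell at NF56 (-0.84 ± 0.14, adjusted p = 0.0034) and at NF62 (-0.92 ± 0.15, adjusted p = 0.0015), and by 1.70 in all (SE 0.15, adjusted p = 6.8e-06). Against the mean of NF56 and NF66, col12a1 was higher at NF62 (0.40 ± 0.09, adjusted p = 0.026) and col14a1 lower (-0.48 ± 0.13, adjusted p = 0.044), with libraries that overlapped. Leaving out 1 library ended the col12a1 call in 5 of 12 fits (0.37 to 0.45), those without NF66 replicate 1, NF62 replicate 1 or 3, or NF56 replicate 1 or 2. The col14a1 call held only without NF50 replicate 3, NF56 replicate 1, NF62 replicate 3 or NF66 replicate 3 (-0.61 to -0.40). The ratio of col12a1 to col14a1 in TPM was 0.408 ± 0.086, 0.938 ± 0.109, 3.31 ± 0.511 and 3.40 ± 0.557 from NF50 to NF66.

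Of the other fibril-associated genes, col19a1, which is expressed by some neurons in mice, was at 8.36, 14.7 and 11.4 CPM at NF66 and 2.68, 3.2 and 2 CPM at NF50. Every NF66 library was more than 2 times the highest NF50 library (2.12 ± 0.27, adjusted p = 0.00012). The gene col16a1 was at 33.8, 45.8 and 27.4 CPM at NF66 and 18.3, 15.3 and 17.2 CPM at NF50 (1.08 ± 0.20, adjusted p = 0.0016). The gene col20a1 rose by 0.74 ± 0.16 (adjusted p = 0.0045), and col21a1, near 1 CPM, by 1.29 ± 0.35 (adjusted p = 0.013), a call lost without NF50 replicate 1 or NF66 replicate 3 (1.04 to 1.49).

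The type IX genes col9a1 and col9a2, known from cartilage and the eye, fell at NF56 against NF50 (-0.65 ± 0.18 and -0.37 ± 0.10, adjusted p = 0.035 and 0.029). Each call was lost in 5 of 12 fits with 1 library left out, including those without NF50 replicate 1 or 4 and without NF56 replicate 1 or 3; the others were NF62 replicate 3 for col9a1 and NF56 replicate 2 for col9a2. On log2(TPM + 1) without TMM factors the col9a2 value was 0.01, and -0.13 without NF50 replicate 4. The gene col9a2 rose again at NF62 against NF56 (0.45 ± 0.10, adjusted p = 0.0089), where it was at 14.7, 14.5 and 12.8 CPM at NF62 and 10.7, 9.96 and 10.2 CPM at NF56. Against the mean of NF56 and NF66, col9a2 was higher at NF62 (0.33 ± 0.08, adjusted p = 0.039), but this held only without NF50 replicate 3 or 4 or NF66 replicate 1 (0.29 to 0.39). At NF66 against NF50 neither gene passed.

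**Figure D4:**
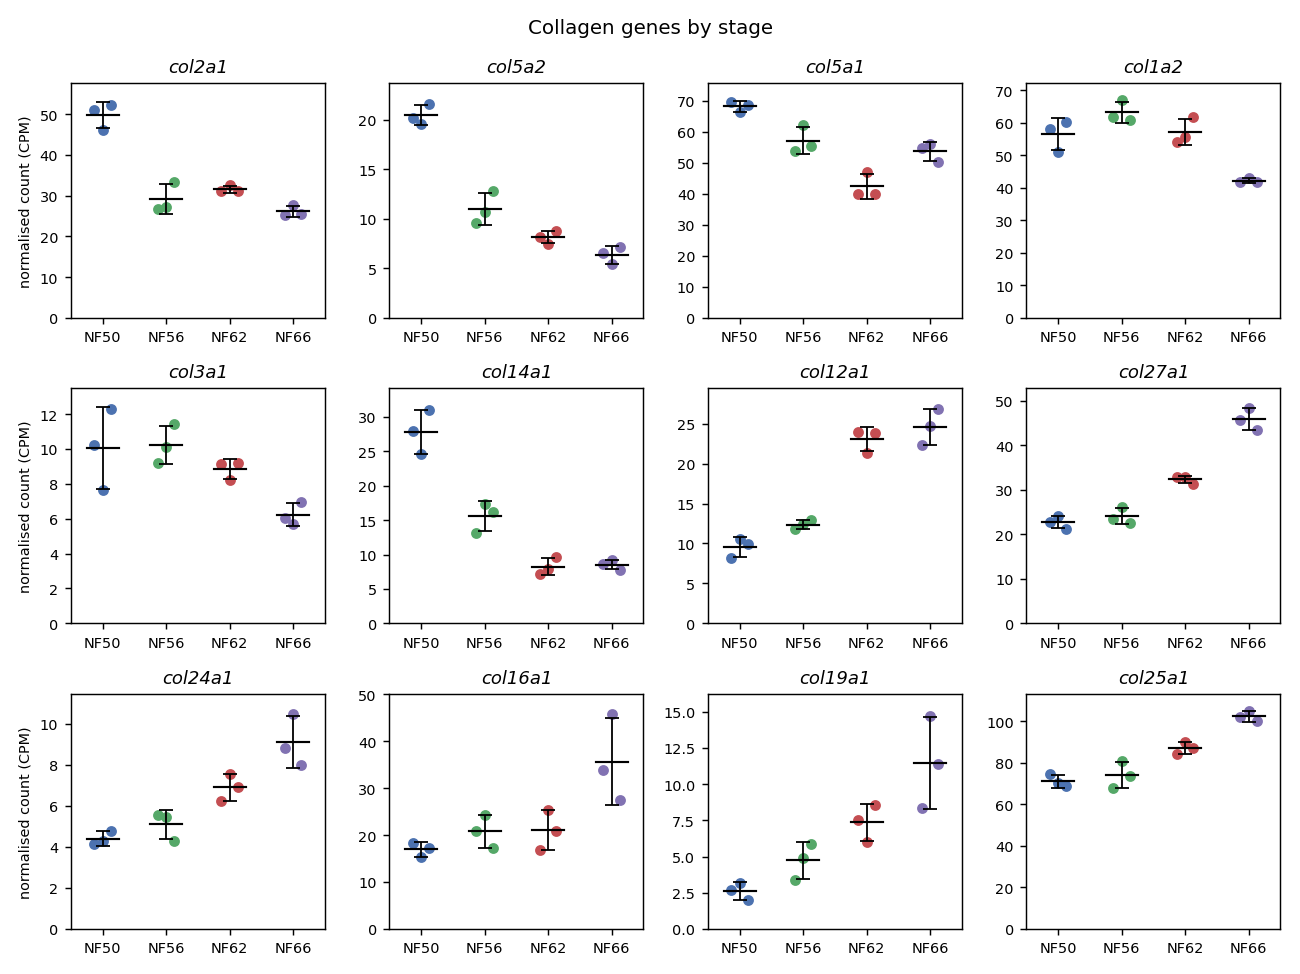
Normalised counts (CPM, y axes from 0) of 12 collagen genes in each library at the 4 stages; the long line is the mean and the bars are SD (n = 3). The genes col2a1, col5a2 and col14a1 are highest at NF50, and col27a1, col24a1, col19a1 and col25a1 are highest at NF66.

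The transmembrane collagen gene col25a1, which neurons express in mammals, was at 102, 105 and 100 CPM at NF66 and 74.6, 70.2 and 68.6 CPM at NF50. The groups did not overlap, and the gene rose (0.52 ± 0.07, adjusted p = 9.7e-05). Its step at NF62 against NF56 (0.23 ± 0.07, adjusted p = 0.029) was lost in 5 of 12 fits with 1 library left out (0.17 to 0.30), without any NF62 library or NF56 replicate 1 or 3. The other member of that group, col13a1, rose at NF62 against NF56 (0.37 ± 0.10, adjusted p = 0.032), a call lost without NF56 replicate 1 or 2 or NF62 replicate 1 or 3 (0.29 to 0.47).

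Type VI collagen forms beaded filaments. The gene col6a1 was at 14.4, 20.1 and 19.5 CPM at NF66 and 11.0, 9.67 and 12.3 CPM at NF50, with no overlap (0.71 ± 0.14, adjusted p = 0.0017). Its partner col6a3 was below 1 CPM in every library and did not pass, nor did col28a1. The fibrillin gene fbn1, a microfibril component, was at 31, 40.7 and 32.9 CPM at NF66 and 28.0, 22.8 and 26.6 CPM at NF50 (0.43 ± 0.12, adjusted p = 0.018). Leaving out NF50 replicate 3 or NF66 replicate 2 ended that call (0.31 to 0.51).

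Fibronectin, coded by fn1, is a matrix and plasma protein bound by several integrins. It was at 56.6, 62.8 and 63.0 CPM at NF50, 44.1, 47.4 and 54.6 at NF56, 50.7, 45.1 and 64.8 at NF62, and 38.5, 45.1 and 38.9 at NF66. The NF62 libraries overlapped those of NF50 and NF56, while the NF66 libraries were all below those of NF50. Over metamorphosis fn1 fell (-0.58 ± 0.13, adjusted p = 0.0048), and no single step passed.

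Integrin alpha genes included 1 that rose and 3 that fell among 9 tested at NF66 against NF50. That is 44.4%, near the 36.7% of all models that passed in either direction. The laminin receptor gene itga6 was at 29.5, 28.7 and 25.6 CPM at NF50, 17.1, 17.3 and 15.7 at NF56, 16.7, 14.9 and 16.2 at NF62, and 15.5, 14.0 and 14.7 at NF66. Its change lay at NF56 (-0.74 ± 0.08, adjusted p = 0.00041), after which the libraries stayed within 14.0 to 17.3 CPM. At NF66 against NF50 it was lower by 0.92 (SE 0.08, adjusted p = 1.1e-05).

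The gene itga4, whose chain binds fibronectin and a vessel wall ligand, was at 0.923, 1.47 and 1.77 CPM at NF66 and 3.43, 4.09 and 4.15 CPM at NF50 (-1.47 ± 0.26, adjusted p = 0.00097). The collagen receptor gene itga2 was at 1.25, 1.21 and 0.869 CPM at NF66 and 2.04, 1.71 and 1.96 CPM at NF50 (-0.79 ± 0.24, adjusted p = 0.023). In neither did the libraries overlap. Without NF66 replicate 3, or NF50 replicate 1 or 4, the itga2 call was lost (-0.89 to -0.63).

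Another collagen receptor gene, itga11, was at 4.57, 3.62 and 5.33 CPM at NF50, 5.23, 4.08 and 4.13 at NF56, 6.53, 7.54 and 7.62 at NF62, and 6.60, 6.13 and 7.88 at NF66. The later stages lay above the earlier ones in every library. It rose at NF62 against NF56 (0.68 ± 0.17, adjusted p = 0.019; lost without NF56 replicate 2 or 3 or NF62 replicate 3, 0.62 to 0.82). At NF66 it was higher than at NF50 (0.61 ± 0.17, adjusted p = 0.016; lost without NF50 replicate 3 or NF66 replicate 3, 0.46 to 0.74).

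The fibronectin receptor gene itga5 was at 6.31, 5.53 and 6.50 CPM at NF50, 4.90, 3.79 and 3.97 at NF56, 6.69, 6.77 and 6.93 at NF62, and 4.85, 5.14 and 5.31 at NF66. It was highest at the climax in every library. It fell at NF56 against NF50 (-0.53 ± 0.13, adjusted p = 0.021), rose at NF62 against NF56 (0.68 ± 0.13, adjusted p = 0.0041) and was higher at NF62 than the mean of NF56 and NF66 (0.55 ± 0.11, adjusted p = 0.013). The call at NF56 was lost without NF56 replicate 2 or 3 and without NF50 replicate 1 or 4 (-0.66 to -0.45), and the call of the climax against its neighbours without NF62 replicate 1 or 3 (0.51 to 0.61). With the replicate number as a block in the fit, the fall at NF56 was also lost. That block takes NF50 replicate 4 out of the comparisons, so this loss is not independent of the fit without that library.

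Among the 10 integrin alpha members the most abundant per length was itgav, whose chain binds fibronectin and vitronectin. It held 35.9 to 43.6% of their summed TPM on average. That sum leaves out the model of itga3, rps23 and tmem167a and that of golga4 and itga9, since each held more than 1 symbol. The gene itgav was at 30.7, 33.7 and 37.6 CPM at NF66 and 30.8, 33.0 and 32.9 CPM at NF50, with an interval of the log2 difference of -0.09 to 0.25. The ratio of itgav to itga6 in TPM was 1.19 ± 0.13 at NF50, 2.06 ± 0.13 at NF56, 2.16 ± 0.06 at NF62 and 2.37 ± 0.31 at NF66. The collagen receptor gene itga1 was at 6, 6.40 and 6.21 CPM at NF66 and 5.17, 7.05 and 6.45 CPM at NF50 (interval -0.35 to 0.33). The genes itga9 and itga10.1 did not pass in any of the 4 pairs of stages tested.

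Among the 5 integrin beta members, itgb1 held 90.7 to 93.4% of their summed TPM on average. That sum leaves out itgb4, whose model held more than 1 symbol. The gene itgb1 was at 66.7, 59.7 and 65.8 CPM at NF66 and 81.9, 77.6 and 74.7 CPM at NF50. The groups did not overlap, and itgb1 fell by 0.29 on the log2 scale (SE 0.07, adjusted p = 0.0062). On log2(TPM + 1) without TMM factors, though, its value was 0.05, and -0.20 without NF50 replicate 4. The others, itgb3, itgb6 and itgb7, did not pass in this comparison (-0.70 ± 0.28, 0.99 ± 0.46 and 0.36 ± 0.14).

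**Figure D5:**
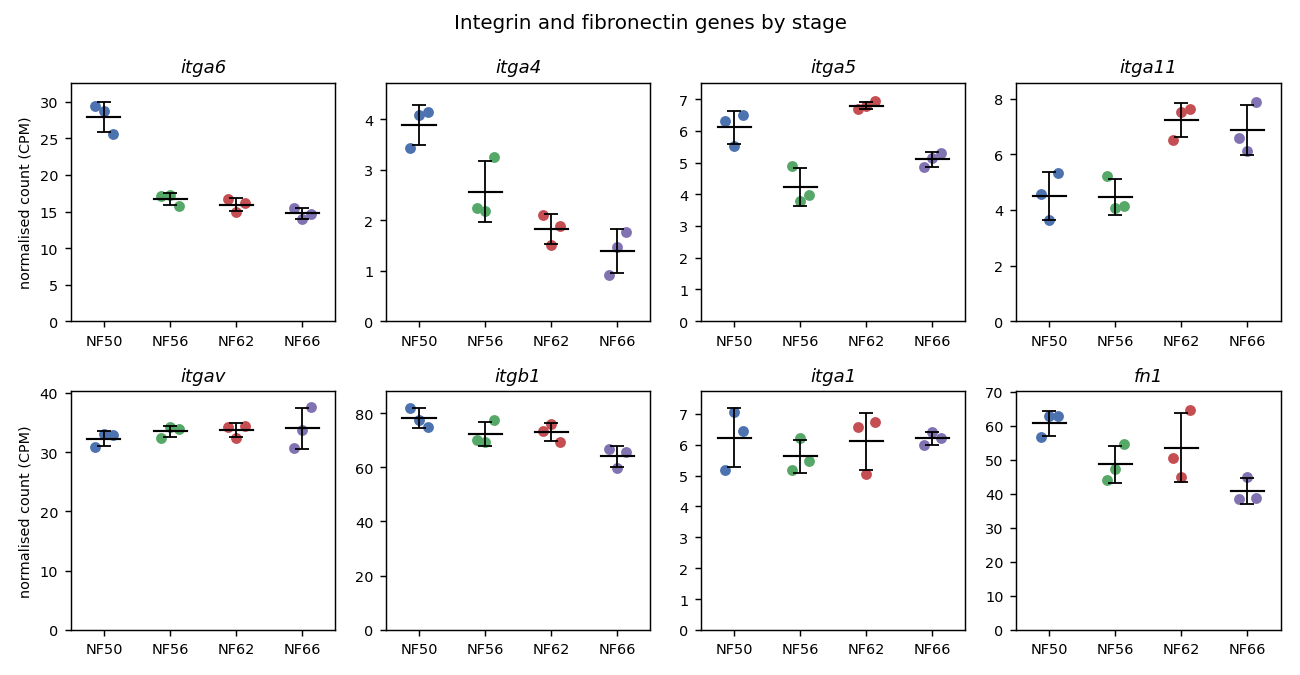
Normalised counts (CPM, y axes from 0) of integrin genes and fn1 in each library at the 4 stages; the long line is the mean and the bars are SD (n = 3). The gene itga6 drops between NF50 and NF56, itga5 is highest at NF62, and itgav stays between 30.7 and 37.6 CPM.

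Of the members matched by name only, col4a3bp was at 60.3, 59.7 and 66.6 CPM at NF66 and 48.8, 51.1 and 43.6 CPM at NF50 and rose (0.38 ± 0.08, adjusted p = 0.0031). Its step at NF62 against NF56 (0.27 ± 0.08, adjusted p = 0.035) was lost in 6 of 12 fits with 1 library left out (0.23 to 0.33), without NF50 replicate 1, any NF56 library or NF62 replicate 1 or 3. The gene itgb1bp1 did not pass (0.05 ± 0.14).

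Genes that work with the members are given beside the 36.7% of all models that passed at NF66 against NF50. Of 22 tested genes of collagen processing and crosslinking, 3 rose and 5 fell, a share close to that of all models. The crosslinking enzyme gene loxl2 fell (-1.70 ± 0.18, adjusted p = 2.6e-05), as did crtap, part of the prolyl hydroxylation complex of fibrillar collagen (-1.47 ± 0.16, adjusted p = 3.7e-05). Of 50 other matrix and basement membrane genes 11 rose and 17 fell, with hapln3, a link protein gene, at -2.40 ± 0.21 (adjusted p = 6.8e-06) and ltbp4, which codes for a binding protein of latent growth factor, at -2.21 ± 0.11 (adjusted p = 2.8e-07). Of 27 genes of integrin adaptors and focal adhesion 5 rose and 7 fell. The kinase gene ptk2b rose (2.54 ± 0.26, adjusted p = 2.5e-05) and the adaptor gene pxn fell (-0.80 ± 0.10, adjusted p = 8e-05).

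Markers of the cell types that the tissue could hold were counted in the same comparison, where 17.9% of all models rose and 18.8% fell. In bulk tissue, fewer cells of a type and less RNA per cell cannot be told apart. Of 14 tested markers of meninges and fibroblasts, 2 rose and 9 fell at NF66 against NF50, with summed levels of 83.2 to 98.9 CPM at NF66 and 103 to 109 CPM at NF50. Of 7 tested markers of radial glia and astrocytes 0 rose and 5 fell by edgeR, and no other had an unadjusted p under 0.05. Their sums were 1150 to 1330 CPM at NF66 and 2050 to 2290 CPM at NF50. Endothelial markers gave 2 rises and 5 falls among 14, with sums of 413 to 500.0 CPM at NF66 and 350.0 to 400.0 CPM at NF50. Without slc2a1, the glucose transporter gene that was the most abundant of them, the sums were 154 to 181 CPM at NF66 and 186 to 212 CPM at NF50. Pericyte and smooth muscle markers gave 2 and 5 among 11 (209 to 219 CPM and 227 to 236 CPM), and cartilage and bone markers 1 and 2 among 10 (61.3 to 69.8 CPM and 71.8 to 76.4 CPM).

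Oligodendrocyte markers gave 4 rises and 0 falls among 6 by edgeR, and no other had an unadjusted p under 0.05. Their sums were 1880 to 2670 CPM at NF66 and 911 to 1060 CPM at NF50. Choroid plexus and ependyma markers gave 1 rise and 5 falls among 11 (90.0 to 113 CPM at NF66 and 144 to 198 CPM at NF50), and ttr, one of the genes listed, was at or near 0 throughout, with at most 0.0993 CPM in any library. Neuron markers gave 7 rises and 2 falls among 14 (9560 to 10100 CPM at NF66 and 8520 to 8710 CPM at NF50). Microglia and leukocyte markers gave 3 and 1 among 11 (96.3 to 120 CPM and 77.4 to 81.6 CPM). Hypothalamic and preoptic markers gave 4 and 2 among 13 (2020 to 2470 CPM and 1880 to 2070 CPM). Skeletal muscle markers gave 2 and 3 among 6, with sums of 33 to 39.6 CPM at NF66 and 17 to 19.1 CPM at NF50. Red blood cell markers gave 0 and 2 among 6 (164 to 192 CPM and 177 to 189 CPM). No other red blood cell marker had an unadjusted p under 0.05 by edgeR. The part of these cells in the changes of the members was not tested.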

How the data were processed

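Per the file headers, the deposited files give an expected count for each of 33875 models in each of 12 libraries, with deposited TPM beside it. Tools in the submitters' processing notes are RSEM, Bowtie, cutadapt, CASAVA (version 1.8.2) and DESeq2. No genome build is given in the sources used here, and therefore neither coordinates nor sequences are printed.

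Members were found by gene name in the deposited tables; where a name had several models, the one with most counts was taken. The members and all gene and marker lists were chosen with earlier results of these data known, and so were the tests. Genes described in full are a set list of main chains, and, in each comparison, the 5 members with the largest rise and the 5 with the largest fall among those past the threshold; others that passed are given in brief. Values of 1 tested member are not reported here, though it stays in the counts.

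Expected counts (53.7% were not whole) were rounded, since RSEM divides reads among models, and reads of near-identical or overlapping genes may be split unevenly. filterByExpr by stage (minimum count 10, minimum total 15) left 19584 models with 99.93% of the counts. TMM scaling and a quasi-likelihood fit with a mean per stage were done in edgeR 4.0.16 (R 4.3.3), with a biological coefficient of variation of 18.3%. SE is the absolute log2 fold change divided by the square root of F. Intervals are 95% and rest on the spread between libraries. The scripts were run on simulated counts. No limit was set there on recovery by limma or on false calls by DESeq2. TPM is scaled within each library and got no TMM factor. It was used for levels between genes, ratios within a library and limma 3.58.1 on log2(TPM + 1). Alternatives were RLE scaling, DESeq2 1.42.0, limma with a pseudocount of 1 or 0.1, no filter or a stricter one, the stages compared alone, the replicate number as a block, each library left out (also NF50 replicate 4 from the TPM fit, chosen after seeing the data), summed models of a name, and models with several symbols added.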

Additional observations from a re-analysis of the deposited data

How the results depend on the processing

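By limma on log2(TPM + 1) or log2(TPM + 0.1), which use no TMM factors, 0 members were higher and 0 lower at NF56 against NF50, at NF62 against NF56, at NF66 against NF62 and at NF62 against the average of its neighbours. Of all models, 1.21%, 1.49%, 0.0187% and 0.173% passed in that order with a pseudocount of 1, and 0.918%, 1.38%, 0.0141% and 0.131% with 0.1. With the smaller pseudocount, 11 and 0, 4 and 3, 3 and 2, and 0 and 2 members had an unadjusted p under 0.05 in the same order. Shares of all models at an unadjusted p under 0.05 were not counted for any fit. At NF66 against NF50 either pseudocount called 13 higher and 4 lower, where 19.5% of all models passed. Either called 10 members for any difference among stages. For that test the share of all models was counted only in the main fit (39.6%). Its counts in other fits are thus not set against all models. The values of col9a2 at NF56 against NF50 (0.01 in both) and of itgb1 at NF66 against NF50 (0.05 in both) turned positive there and did not pass. Without NF50 replicate 4, whose TPM stands apart (an alternative chosen after seeing the data), limma on log2(TPM + 1) called 0 higher and 0 lower at NF56 against NF50 (6 and 4 at an unadjusted p under 0.05), 2 and 2 at NF62 against NF56, 0 and 0 at NF66 against NF62 (6 and 2), 12 and 8 at NF66 against NF50, 0 and 1 at NF62 against its neighbours, and 17 for any difference. Of all models, 3.97%, 9.2%, 0.418%, 21.2% and 2.14% passed in that fit, in the order of those comparisons of stages. The col12a1 value at NF62 against NF56 was 0.68 by limma with and without NF50 replicate 4. The cause of the differences between tools was not tested.

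With DESeq2, 4 members were higher at NF56 against NF50 and 6 at NF66 against NF62. Of all models, 17.8% and 6.98% passed there in either direction, against 14.5% and 3.17% in the main fit. With no filter the counts were 0 higher at NF56 against NF50, 3 lower at NF62 against NF56, 1 higher at NF66 against NF62, and 2 higher and 1 lower at NF62 against its neighbours. The shares of all models past the threshold were 7.77%, 10.7%, 1.26% and 3.58% in that order. With only the stages compared the counts were 0 higher at NF56 against NF50, 3 lower at NF62 against NF56, 0 higher and 0 lower at NF66 against NF62, and 2 and 1 at NF62 against its neighbours. There 14.7%, 15.9%, 0.0212% and 5.04% of all models passed in that order. For the counts of 0 by edgeR, 6 (NF56 against NF50, either setting) and 9 and 7 (NF66 against NF62) had an unadjusted p under 0.05. RLE scaling, the stricter filter and the summed models of a name kept every count within 1.5 times.

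With 1 library left out, members higher and lower ranged over 0 to 2 and 6 to 13 at NF56 against NF50, 6 to 12 and 3 to 6 at NF62 against NF56, 0 to 3 and 0 to 2 at NF66 against NF62, 14 to 18 and 14 to 17 at NF66 against NF50, and 0 to 4 and 0 to 2 at NF62 against its neighbours. The shares of all models past the threshold in either direction moved too. In that order they were 8.06 to 15.4%, 12.4 to 19.7%, 0.568 to 2.84%, 29.5 to 37.6% and 2.73 to 7.61%. Any difference among stages was called for 28 to 35 members, with no share of all models counted in these fits. At NF56 against NF50 the falls were 6 without NF50 replicate 1 or 4 and 7 without NF56 replicate 1. At NF62 against NF56 the rises were 6 without NF56 replicate 1 or 2 or NF62 replicate 1, and 7 without NF62 replicate 3. At NF66 against NF50, 12 of 17 rises and 14 of 15 falls kept their call in all 12 fits.

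Of 15 same-numbered pairs of libraries 9 had deviations that correlated above 0.1, with r from -0.181 to 0.638. Pairs numbered 2 or 3 gave 0.447 to 0.638 and pairs numbered 1 gave -0.181 to 0.091. Pairs with unlike numbers ran from -0.732 (NF62 replicate 2 with NF66 replicate 3) to 0.56 (NF62 replicate 1 with NF66 replicate 3). A high r was thus not particular to a shared number. On the axis that held 54.2% of the variance between libraries of the same stage, an order by number did recur. Replicate 3 was highest at each stage (32.9, 42.1, 29.1 and 49.8 from NF50 to NF66). Replicate 2 was lowest at NF56, NF62 and NF66 (-33.4, -54.2 and -42.2), and NF62 replicate 1 was at 25. The labels do not say that the numbers pair the libraries, and the main fit has no term for them. With the replicate number as a block, 4 members were higher at NF56 against NF50, of which 0 were shared with the fit without it (lama3 at 0.57, adjusted p = 0.07; itga5, a fall at that step, at -0.46, adjusted p = 0.054), 6 were higher at NF66 against NF62, and 4 were lower at NF62 against its neighbours; the other counts stayed within 1.5 times. With that block, 27.8% of all models passed in either direction at NF56 against NF50, 30.1% at NF62 against NF56 and 10.3% at NF66 against NF62. At NF66 against NF50 it was 44.4%, and 16.6% at NF62 against its neighbours. Without the block the shares were 14.5%, 18.9%, 3.17%, 36.7% and 7.72% in that order. Only NF50 replicate 4 has that number, so with the block it has its own term and adds nothing to the comparisons. The depth of NF56 replicate 3, the lowest, limits values near 1 CPM.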

Other observations

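The 8 models with more than 1 symbol count the reads of either gene, so their values cannot be given to a chain. The model of col1a1 and myl4 averaged 83.8 CPM at NF50, 79.7 at NF56, 71.5 at NF62 and 41.8 at NF66, and was lower at NF66 than at NF62 (-0.77 ± 0.14, edgeR adjusted p = 0.016). The type I gene col1a2 also fell at that step, but how much of the merged model's change belongs to col1a1 cannot be told. At NF66 against NF50, lower values were also called for the models of fbn3 and lrrc14b (-1.29 ± 0.17, adjusted p = 0.00013), itga3, rps23 and tmem167a (-1.24 ± 0.16), col18a1 and col6a2 (-0.56 ± 0.09), and col4a5 and vbp1 (-0.44 ± 0.08). The model of golga4 and itga9 was higher (0.24 ± 0.09, adjusted p = 0.046). Those of col9a3 and ogfr and of galk1 and itgb4 did not pass (-0.18 ± 0.25 and -0.19 ± 0.13).

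Among genes of the same pathways at NF62 against NF56, the growth factor binding gene ltbp4 (-1.71 ± 0.11, adjusted p = 8.8e-06) and the proteoglycan gene vcan (-1.69 ± 0.11, adjusted p = 1e-05) fell, and parvb, an adaptor that binds integrin-linked kinase, rose (0.66 ± 0.11, adjusted p = 0.0025). At NF56 against NF50 the matrix genes spon2 (-2.17 ± 0.38) and hapln3 (-1.36 ± 0.20) fell (adjusted p = 0.0042 and 0.0015).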
